A study of Mus musculus with 11 samples.

Results

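The oviduct and the ovarian surface epithelium (OSE) are the tissues from which mouse organoid models of high-grade serous ovarian cancer were derived, and RNA of both tissues was sequenced directly, before any culture. Of the 27 libraries of the series, 6 are described here: 3 of bulk oviduct tissue and 3 of tissue labelled OSE, with all 18305 genes of the count table. Both groups are labelled wild type, and no transgene, edit or treatment is named for them. Female mice between 8 and 12 weeks of age, either wild-type C57BL/6 or carrying a CRISPR/Cas9 knock-in, are named in the study's methods as the source of both tissues for organoids. The labels give the samples described here as wild type, a word the series also uses for organoids from Cas9-GFP mice. Which strain gave these tissues is therefore not known. For organoids the oviducts were digested with collagenase, and the cells of the ovarian surface were loosened from whole ovaries with pronase. The study calls the 3 tissue samples of a group independent, but neither how the tissue for RNA was taken nor the number of mice behind each library is described separately. The p-values measure the spread between these samples, and how much of it is technical is not known. RNA of the tissues was extracted with Trizol. It was sequenced with CEL-Seq2, which reads the 3′ ends of polyadenylated transcripts, here of whole tissue rather than of single cells.

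The oviduct carries the egg and the embryo from the ovary to the uterus. Its lining holds secretory cells, which release glycoproteins into the lumen, and multiciliated cells, whose beating cilia move the fluid and the egg, and a coat of smooth muscle surrounds it. The OSE is a single sheet of flat mesothelium-like cells on the ovary. Beneath it lie the follicles, in which granulosa cells surround the oocyte, and the theca, stroma and corpora lutea, which make steroid hormones. In bulk tissue, fewer cells of a type and less RNA per cell cannot be told apart, which holds for every difference given here.

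The total was 825025 to 1561178 counts per library in oviduct tissue and 739248 to 1704646 in OSE tissue. Levels are given as CPM, counts scaled to one common library total with edgeR's TMM factors. A count of 0 in a library was read as up to 3 counts, which is 1.59 to 4.18 CPM in these libraries and covers counting error only. Of 8787 genes that passed edgeR's filter on low counts, 2362 (26.9%) had an adjusted p under 0.05 and were higher in oviduct tissue, and 2133 (24.3%) were higher in OSE tissue, together 51.2% (edgeR's quasi-likelihood test, Benjamini-Hochberg adjustment). "Called" below refers to this threshold. A gene with almost no counts in either tissue passes the filter only through the other. For such a gene the direction of a call is fixed by the filter. The median log2 fold change of all genes tested, oviduct over OSE, was 0.0017, and the central 90% lay between -2.30 and 3.30. The difference was over 2 on the log2 scale in 790 genes called higher in oviduct tissue and 532 called higher in OSE tissue. Mitochondrial RNAs took 16.1% to 19.3% of counts in the oviduct libraries and 6.74% to 11.5% in the OSE libraries, and the 10 most abundant genes took 25.0% to 26.6% and 10.2% to 13.6%.

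The labels were checked against defining markers first. The oviduct libraries carried high levels of markers of secretory cells, ciliated cells and smooth muscle, as their label says. In the OSE libraries the OSE and mesothelium list had a summed CPM close to that in oviduct tissue. Of its 24 members tested, 17 were called in 1 direction or the other, against 51.2% of all genes tested. The sum includes keratins of simple epithelia, higher in oviduct tissue, and *Aldh1a1*, higher in OSE tissue. It therefore does not measure mesothelium, whose markers *Upk3b* and *Lrrn4* were low in both tissues. The OSE libraries also carried high levels of genes of granulosa cells, steroid-producing cells and oocytes. The name OSE tissue is therefore kept as the label of these libraries, without the meaning that their RNA came from surface epithelium alone. The plot of marker levels by library shows these groups side by side.

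**Figure D1:**
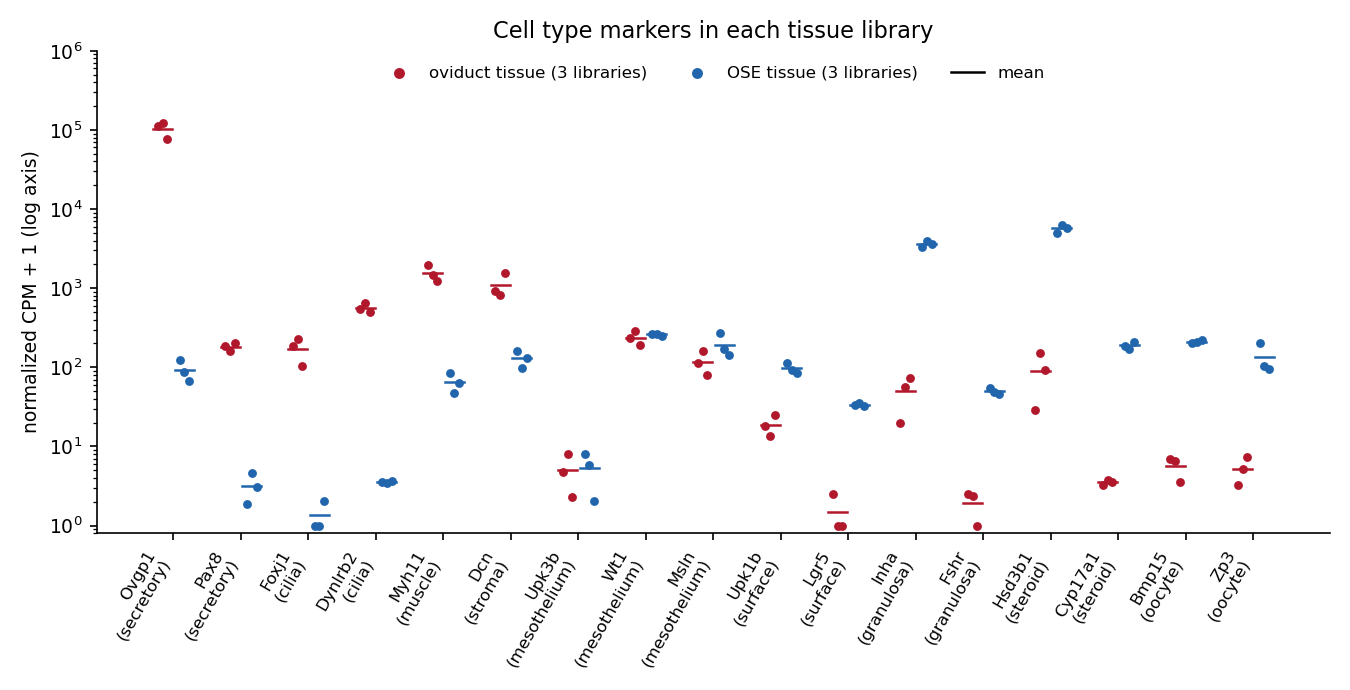
Each point is 1 library and each bar the mean of 3; the vertical axis is normalized CPM + 1 on a log axis, and the horizontal axis lists markers with the cell type they mark. *Inha*, *Hsd3b1* and *Bmp15* were higher in each OSE library than in any oviduct library, whereas *Upk3b* and *Wt1* overlapped between the tissues.

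The genes that mark secretory cells were abundant in oviduct tissue and low in OSE tissue. *Ovgp1* (chromosome 3, 105973802 to 105987423 in GRCm38.p6), which encodes the oviductal glycoprotein of the secretory cells, had 113602, 120796 and 75650 CPM in the oviduct libraries and 122, 85.9 and 65.6 CPM in the OSE libraries. It had the highest mean CPM of any gene in oviduct tissue, although *mt-Rnr2* was above it in oviduct library 3, with a log2 fold change of 10.16 (SE 0.42, adjusted p = 1.77e-10). *Pax8* and *Sox17*, transcription factors of the Müllerian epithelium, had 182 ± 19.9 and 782 ± 47.2 CPM in oviduct tissue (SD, n = 3) and 2.21 ± 1.38 and 10.9 ± 1.09 CPM in OSE tissue. *Pax2* was at or under 3 counts in each OSE library and at least 9.36-fold higher in oviduct tissue. Of 13 secretory genes tested out of 17 listed, 12 were called higher in oviduct tissue and 0 higher in OSE tissue, against 26.9% and 24.3% of all genes tested. The median log2 fold change was 4.80, or 3.23 with genes at the limit of 3 counts set to their bound. *Krt7*, a keratin of simple epithelia, was the member not called, with 132 ± 6.72 CPM in oviduct and 111 ± 42.5 CPM in OSE tissue (SD, n = 3), and it was called higher in oviduct tissue without OSE library 1 (log2 fold change 0.58).

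Genes of motile cilia were high in oviduct tissue and near 0 in OSE tissue. *Foxj1* (chromosome 11, 116330704 to 116335499), the transcription factor that switches on the motile cilium programme, had 184, 224 and 102 CPM in the oviduct libraries and 0, 0 and 1.06 CPM in the OSE libraries, at least 65.1-fold higher in oviduct tissue. *Dynlrb2*, a dynein light chain, had 548, 642 and 502 CPM against 2.61, 2.42 and 2.65 CPM (log2 fold change 7.71, SE 0.25, adjusted p = 3.4e-11). Oviduct library 3 was the lowest of the oviduct libraries for *Foxj1*, *Dynlrb2*, *Tmem212*, *Sntn* and *Dnah5*, and its lowest level of these genes still lay far above each OSE library. *Dnah5* and *Dnali1*, which encode axonemal dyneins, were at least 43.7-fold and at least 21.4-fold higher in oviduct tissue. *Rsph1*, a radial spoke protein, had 52.0 ± 11.8 CPM in oviduct and 2.26 ± 2.24 CPM in OSE tissue (SD, n = 3).

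Of 52 genes tested out of 70 in the ciliated list, 51 were called higher in oviduct tissue, against 26.9% of all genes tested. The median log2 fold change was 6.46, or 3.90 with genes at the limit set to their bound. 23 members had no count in any OSE library. Genes this low in OSE tissue pass the filter only through the oviduct libraries. Their direction was therefore fixed, and the count of calls does not test it. *Ccno*, a cyclin-like gene needed to build many centrioles in multiciliated cells, went the other way: it had 0, 1.39 and 0 CPM in oviduct and 31.3, 23.0 and 20.1 CPM in OSE tissue, at least 7.29-fold higher there. *Mcidas*, which acts upstream of it, had 1 count in oviduct library 1 and 0 in the other tissue libraries. Members that are also used outside motile cilia differed less. *Tppp3*, a tubulin-binding protein, had 683 ± 152 CPM against 71.9 ± 17.5 CPM, and *Mlf1*, *Rfx2* and *Rfx3* had log2 fold changes of 1.32, 1.88 and 2.77.

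Factors of the RFX family are known to bind promoters of ciliary genes, and the core of their motif, GTTGCC on either strand, was searched in the RefSeq promoter windows of GRCm38.p6, which span 250 bases before and 50 after each start. Of the 51 called members, 42 had a promoter there and 21 of these (50%) held the letters, against 14.1% of all 27025 genes with a promoter. A match is a description of these letters and not a binding site. The stretches below, of 60 bases each and written 5′ to 3′ on the strand of the gene, show the motif in capitals in the promoters of the members with the highest CPM in oviduct tissue among those that held it. The motif lay 51, 152, 66, 12 and 105 bases before the start of *Dynlrb2*, *Ccdc153*, *Sntn*, *Pifo* and *Mlf1*, and in *Pifo* it is read on the other strand.
Dynlrb2, chr8:116504937-116504996, plus strand: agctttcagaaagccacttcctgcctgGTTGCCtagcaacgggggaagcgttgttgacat
Ccdc153, chr9:44240498-44240557, plus strand: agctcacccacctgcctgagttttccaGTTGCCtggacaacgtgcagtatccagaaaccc
Sntn, chr14:13670783-13670842, plus strand: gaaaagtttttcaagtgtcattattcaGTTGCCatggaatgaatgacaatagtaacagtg
Pifo, chr3:106001498-106001557, minus strand: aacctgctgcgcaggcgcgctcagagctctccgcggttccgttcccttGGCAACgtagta
Mlf1, chr3:67373965-67374024, plus strand: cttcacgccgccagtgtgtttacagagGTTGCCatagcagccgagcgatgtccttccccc
*Ccdc153* and *Pifo* had no count in any OSE library, while *Mlf1*, with the motif as well, had 44.0 ± 6.34 CPM there (SD, n = 3).

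Genes of epithelial junctions and of fluid transport were higher in oviduct tissue or not called. *Cdh1*, the E-cadherin of epithelial junctions, had 414, 483 and 363 CPM in the oviduct libraries and 28.7, 37.5 and 37.6 CPM in the OSE libraries (log2 fold change 3.59, SE 0.19, adjusted p = 1.37e-09). The tight junction gene *Cldn7* was at least 48.0-fold higher in oviduct tissue, and *Epcam* and the epithelial transcription factor *Ehf* had log2 fold changes of 2.03 and 4.40. Of 21 junction genes tested out of 34, 19 were called higher in oviduct and 0 higher in OSE tissue (median log2 fold change 2.72). Among all genes tested the shares were 26.9% and 24.3%. The desmosome gene *Dsp* and the junction gene *F11r* were not called. *Dsp* had 303, 373 and 86.4 CPM in oviduct and 246, 171 and 126 CPM in OSE tissue, and oviduct library 3 lay below each OSE library. Without oviduct library 3 *Dsp* was called higher in oviduct tissue (log2 fold change 0.91).

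Ion carriers of secreting epithelium followed. *Slc4a4*, a sodium bicarbonate cotransporter, had 142 ± 5.97 CPM in oviduct and 12.5 ± 1.51 CPM in OSE tissue (SD, n = 3, log2 fold change 3.47, SE 0.20, adjusted p = 3.24e-09). *Slc12a2* and the chloride channel *Cftr* had log2 fold changes of 2.26 and 2.25. In all, 11 of 15 tested genes out of 30 were called higher in oviduct tissue and 0 higher in OSE tissue. Among all genes tested the shares were 26.9% and 24.3%. The median was 1.86, and 4 were not called, among them the channel *Ano1* and the anion exchanger *Slc4a2*.

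The oviduct libraries held large amounts of RNA for antimicrobial and iron-binding proteins, and these varied more between oviduct libraries than the markers above. *Wfdc18*, a whey acidic protein family member, had 2976, 2434 and 621 CPM in the oviduct libraries and 4.34, 0 and 1.59 CPM in the OSE libraries. *Ltf*, the iron-binding lactoferrin, had 1174, 1031 and 375 CPM and was at least 330-fold higher than in OSE tissue. *Lcn2*, which binds bacterial siderophores, had 1158, 1112 and 194 CPM, against 4.34, 1.21 and 1.59 CPM. Oviduct library 3 was the lowest for each of these genes. *Wfdc2* was steadier, with 463, 354 and 365 CPM against 6.08, 4.84 and 8.47 CPM. Of 14 genes tested out of 23, 12 were called higher in oviduct and 0 higher in OSE tissue (median log2 fold change 2.98). Among all genes tested the shares were 26.9% and 24.3%. *Clu*, a secreted chaperone, and *Lyz1* were not called: *Clu* had 516 ± 205 CPM in oviduct and 658 ± 71.1 CPM in OSE tissue (SD, n = 3).

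Hormone receptors and position genes of the Müllerian tract were among the transcription factors higher in oviduct tissue. *Esr1*, the oestrogen receptor, had 170, 200 and 215 CPM in oviduct and 11.3, 8.47 and 7.41 CPM in OSE tissue (log2 fold change 4.43, SE 0.22, adjusted p = 9.9e-10). *Pgr*, the progesterone receptor, had 238, 139 and 630 CPM against 1.74, 10.9 and 2.65 CPM, and here oviduct library 3 was the highest. *Hoxa5*, one of the genes that set position along the body axis, had 125, 122 and 108 CPM and was at least 45.4-fold higher than in OSE tissue. Of 14 tested factors out of 29 listed, 11 were called higher in oviduct tissue, against 26.9% of all genes tested. The median log2 fold change was 4.43, or 3.05 with bounds. *Hoxd9* was the member called higher in OSE tissue (2.79 ± 1.54 against 20.3 ± 7.28 CPM, SD, n = 3), and *Hoxc6* and *Hoxc9* were not called.

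The muscle coat of the oviduct was represented by high levels of contractile genes. *Acta2*, smooth muscle actin, had 3414, 3633 and 3496 CPM in the oviduct libraries and 551, 390 and 397 CPM in the OSE libraries (log2 fold change 2.98, SE 0.19, adjusted p = 1.1e-08). *Myh11*, the smooth muscle myosin heavy chain, had 1934, 1477 and 1248 CPM against 83.4, 46.0 and 61.9 CPM (log2 fold change 4.59, SE 0.24, adjusted p = 1.5e-09). All 18 muscle genes tested, out of 21, were called higher in oviduct tissue, against 26.9% of all genes tested. The median log2 fold change was 3.59, and *Des*, *Cnn1* and *Tagln* had values of 5.09, 4.78 and 3.44. The CArG box, the motif of serum response factor in muscle genes, occurred in the promoter window of 1 of 15 members with a promoter (6.67%), *Myl9*, against 1.81% of all genes. It was not particular to muscle. Of the immediate early genes called higher in OSE tissue, 2 of 23 with a promoter held it (8.7%), *Zfp36* and *Egr2*.

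Fibroblast genes were mostly higher in oviduct tissue, with wide differences between members. *Dcn*, the matrix proteoglycan decorin, had 911, 813 and 1550 CPM in oviduct and 161, 95.6 and 130 CPM in OSE tissue (log2 fold change 3.07, SE 0.26, adjusted p = 1.44e-07). The fibrillar collagens differed less: *Col3a1* had 2350 ± 765 against 1293 ± 464 CPM and *Col1a1* had 389 ± 150 against 234 ± 114 CPM (SD, n = 3), and *Col1a1* was not called (adjusted p = 0.0545). With the replicate block *Col1a1* had a log2 fold change of 0.76 and was called higher in oviduct tissue, as it was without oviduct library 2 (0.94) or OSE library 1 (1.18). *Pdgfra*, a receptor on many fibroblasts, was not called either. Of 26 genes tested out of 28, 16 were called higher in oviduct tissue, against 26.9% of all genes tested. The 2 called higher in OSE tissue, against 24.3% of all genes tested, were *Col6a1* and *Fbln1*, and the list median was 0.92. Those 2 calls were lost with DESeq2 and when OSE library 1, OSE library 2, oviduct library 1 or oviduct library 2 was left out, and that of *Col3a1* without OSE library 2 (log2 fold change 0.74) or OSE library 3 (0.64). Oviduct library 3 had the highest summed CPM of this list, 12927, and the others 8305 and 8646.

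Of 10 endothelial genes tested out of 23, 5 were called higher in oviduct tissue and 0 higher in OSE tissue, against 26.9% and 24.3% of all genes tested, with a median of 0.58. The summed CPM of the list was 307 to 333 in the oviduct libraries and 175 to 213 in the OSE libraries. *Pecam1* had 58.2 ± 6.80 CPM in oviduct and 31.1 ± 9.13 CPM in OSE tissue (SD, n = 3), while *Cdh5* and *Kdr* were not called. DESeq2 called 3 members, as did edgeR in a fit of 11 libraries, without oviduct library 3 or without OSE library 3. *Lyve1*, a marker of lymphatic vessels and some macrophages, had a log2 fold change of 2.49. All 4 pericyte genes tested out of 10 were called higher in oviduct tissue. All 11 myeloid genes tested out of 22 were too, with a median of 1.76; *C1qa* and *C1qb*, complement genes of macrophages, both had 1.76 and *Csf1r* 1.03. The call of *Csf1r* was lost with DESeq2 (1.06), the replicate block (1.01), upper quartile factors (0.97) and the fit of 11 libraries (1.01). It was also lost without oviduct library 2 or 3 or OSE library 2 or 3, leaving log2 fold changes of 0.67 to 0.92. *Ptprc*, the pan-leukocyte antigen, was the 1 lymphoid gene tested (log2 fold change 1.37). The only erythroid gene tested was *Hbb-bs*, a beta globin, at 790, 938 and 334 CPM in oviduct and 411, 43.6 and 101 CPM in OSE tissue; its groups overlapped, and its call was lost with DESeq2 and without OSE library 3 (log2 fold change 1.53). In this list and the lymphoid list 1 member each had enough counts to be tested. In this table a 0 does not show absence, since *Cd68*, a macrophage gene, and *Tgfb1* were at 0 in every tissue library.

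Of 6 adipocyte genes tested out of 12, 3 were called higher in oviduct tissue and 1, *Pparg*, higher in OSE tissue. For all genes tested these shares were 26.9% and 24.3%. *Cfd* and *Car3*, genes of fat cells, had 62.9 to 113 and 29.2 to 88.9 CPM in the oviduct libraries and no count in any OSE library. Of the list of glia and neurons, 2 of 12 genes were tested. *S100b*, a marker of glia and of some other cells, had 64.1 ± 30.3 CPM in oviduct and 3.07 ± 0.833 CPM in OSE tissue (SD, n = 3). *Uchl1*, known from neurons and from germ cells, went the other way, with 24.4, 34.8 and 30.5 CPM against 887, 709 and 807 CPM.

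**Figure D2:**
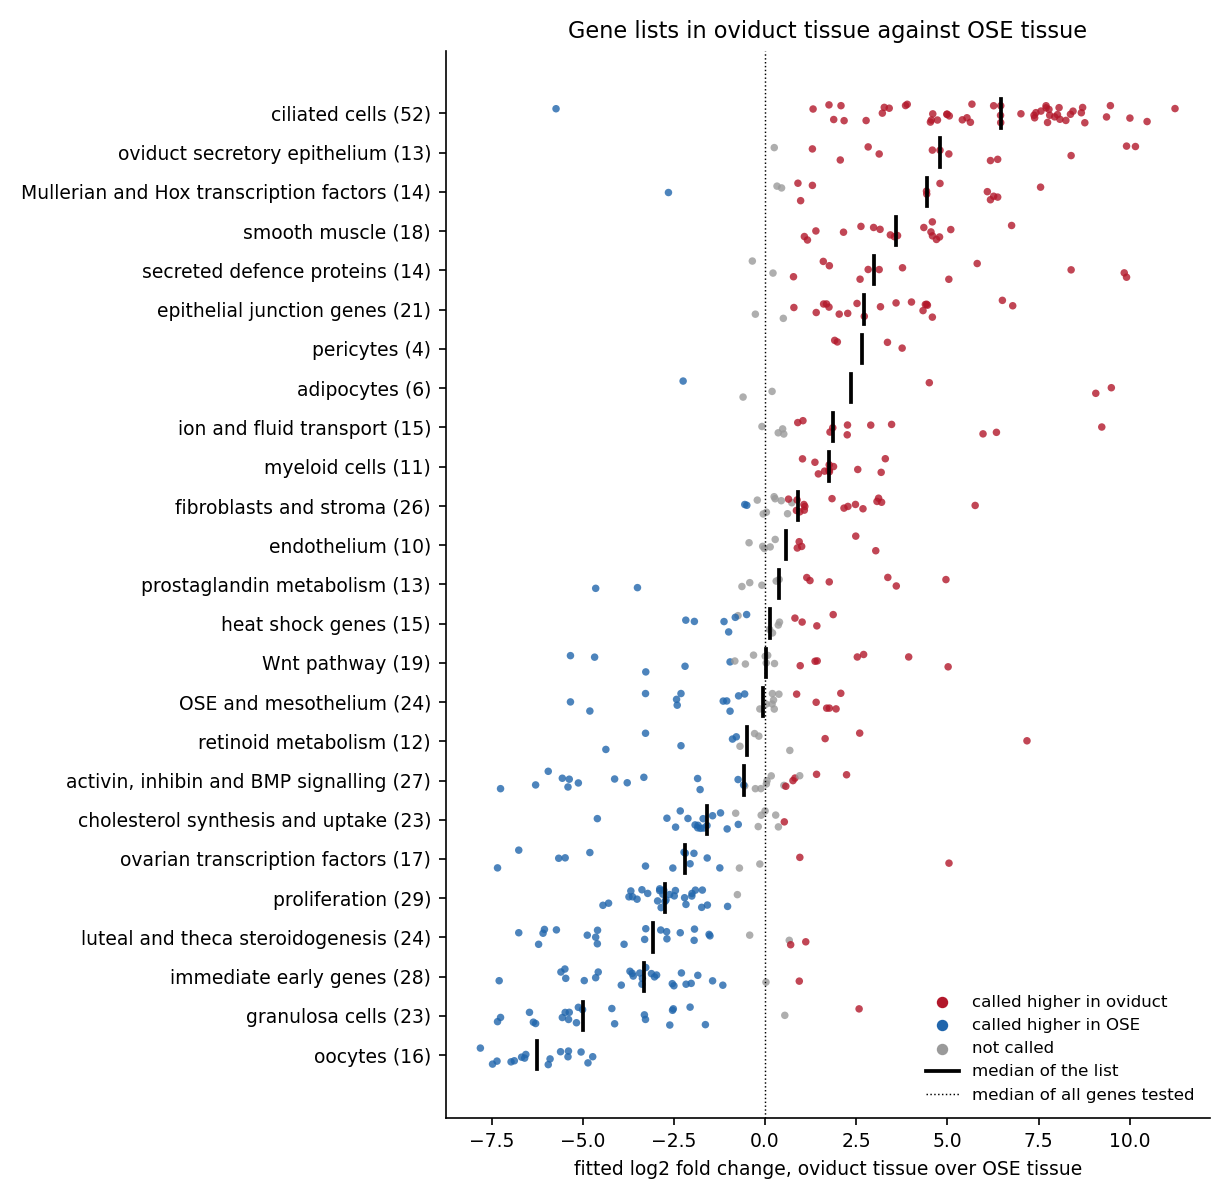
Each row is a gene list with the number of genes tested, each point a gene at its fitted log2 fold change of oviduct over OSE tissue, each short bar the median of the list and the dotted line the median of all genes tested. Lists of oviduct epithelium and muscle lie to the right, lists of oocytes, granulosa cells and immediate early genes to the left, and the OSE and mesothelium list is spread on both sides with a median of -0.06.

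The list of surface epithelium divided between the tissues. Of 24 genes tested out of 28, 11 were called higher in OSE tissue, against 24.3% of all genes tested. Called higher in oviduct tissue were 6, against 26.9% of all genes tested, and 7 were not called. In a fit of 11 libraries 7 members were called higher in OSE tissue. The summed CPM of the list was 3017 to 3530 in oviduct and 3040 to 3830 in OSE tissue. *Lgr5*, a receptor for R-spondins that marks stem cells of the surface epithelium, had 1.48, 0 and 0 CPM in the oviduct libraries and 32.1, 33.9 and 31.8 CPM in the OSE libraries, at least 9.58-fold higher there. *Aldh1a1*, an enzyme of retinoic acid synthesis, had 91.0, 106 and 61.0 CPM against 816, 895 and 794 CPM (log2 fold change -3.28, SE 0.20, adjusted p = 5.4e-09). *Upk1b* and *Aldh1a2* had log2 fold changes of -2.41 and -2.31.

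The markers that define mesothelium differed little. *Wt1* had 231, 287 and 188 CPM in oviduct and 264, 266 and 248 CPM in OSE tissue (adjusted p = 0.5), and *Lrrn4* had 22.6 ± 2.72 and 19.2 ± 12.3 CPM (SD, n = 3, adjusted p = 0.674). *Wt1* is also in the list of ovarian transcription factors, so its level does not stand for mesothelium alone. *Msln*, mesothelin, had 113, 159 and 78.8 CPM against 268, 167 and 142 CPM, a log2 fold change of -0.73 (SE 0.26, adjusted p = 0.028), and its groups overlapped. That call was lost without oviduct library 1 (-0.68), oviduct library 3 (-0.52) or OSE library 1 (-0.43). *Upk3b* was too low to be tested, at 3.98 CPM in oviduct and 4.28 CPM in OSE tissue on average. The keratins *Krt8*, *Krt18* and *Krt19*, which the surface epithelium shares with other simple epithelia, were higher in oviduct tissue, with log2 fold changes of 1.95, 2.08 and 1.69.

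The OSE libraries held the RNA of follicle cells at high levels. *Inha* (chromosome 1, 75507077 to 75510366), the alpha subunit of inhibin, had 18.5, 55.7 and 72.4 CPM in the oviduct libraries and 3283, 3997 and 3635 CPM in the OSE libraries (log2 fold change -6.29, SE 0.36, adjusted p = 3.28e-09). *Inhba* and *Inhbb*, the subunits shared by activins and inhibins, had 393 ± 107 and 1324 ± 235 CPM in OSE tissue (SD, n = 3). *Inhba* had 2, 2 and 3 counts in the oviduct libraries and was 115-fold higher in OSE tissue than 3 counts per oviduct library. *Fshr*, the receptor for follicle-stimulating hormone, had 53.0, 48.4 and 44.5 CPM in the OSE libraries and was at least 14.3-fold higher than in oviduct tissue. *Foxl2*, the transcription factor that keeps granulosa identity, had 38.4 ± 8.41 against 9.36 ± 6.40 CPM.

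Of 23 granulosa genes tested out of 24, 21 were called higher in OSE tissue, against 24.3% of all genes tested. The median log2 fold change was -5.00, or -4.20 with bounds. *Gatm*, an enzyme of creatine synthesis, was the member called higher in oviduct tissue (58.4 ± 30.2 against 10.2 ± 1.53 CPM, SD, n = 3), and *Kctd14* was not called, though without oviduct library 3 it was called higher in oviduct tissue (log2 fold change 0.89). The summed CPM of the list was 694 to 902 in the oviduct libraries and 10375 to 12201 in the OSE libraries. The motif CAAGGTCA of NR5A receptors, on either strand, was in the promoter window of 1 of 17 members with a promoter, *Amhr2*, against 1.76% of all genes.

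Genes of steroid synthesis were likewise higher in OSE tissue. *Hsd3b1* (chromosome 3, 98842356 to 98859794), which converts pregnenolone to progesterone, had 28.1, 152 and 90.2 CPM in the oviduct libraries and 5044, 6276 and 5826 CPM in the OSE libraries (log2 fold change -6.05, SE 0.43, adjusted p = 3.2e-08). *Cyp11a1*, which cleaves the cholesterol side chain, had 2.22, 43.1 and 6.35 CPM against 693, 799 and 837 CPM, and *Star*, which brings cholesterol into mitochondria, had 9.62, 30.6 and 16.5 CPM against 398, 501 and 641 CPM. Oviduct library 2 was the highest of the oviduct libraries for all 3 genes and remained below each OSE library. *Cyp17a1*, the enzyme of androgen synthesis in theca cells, and *Nr5a1*, the transcription factor of steroidogenic cells, were at least 55.4-fold and at least 25.3-fold higher in OSE tissue.

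Of 24 steroidogenic genes tested out of 27, 20 were called higher in OSE tissue, against 24.3% of all genes tested. The median log2 fold change was -3.07, or -2.88 with bounds. *Por* and *Tspo*, which are used by many cell types, were called higher in oviduct tissue with 1.12 and 0.70, and *Npc1* and *Parm1* were not called, though *Parm1* was called higher in oviduct tissue without OSE library 2 (0.87). *Akr1c18*, which inactivates progesterone in the regressing corpus luteum, had 23.5 and 41.2 CPM in OSE libraries 1 and 2 and 192 CPM in OSE library 3. The motif CAAGGTCA was in the promoter window of 0 of 12 members with a promoter.

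Cholesterol supply moved in the same direction. Of 23 genes tested out of 28, 16 were called higher in OSE tissue and 1 higher in oviduct tissue (median log2 fold change -1.59). Of all genes tested, 24.3% and 26.9% were called in these directions. *Hsd17b7* had the widest difference of the list, with 7.15 ± 3.75 against 163 ± 42.5 CPM (SD, n = 3), and it also takes part in oestradiol synthesis in the ovary. *Scarb1*, a receptor that takes up lipoprotein cholesterol, had a log2 fold change of -2.69, and *Abca1*, which exports cholesterol, was the member higher in oviduct tissue (0.53, adjusted p = 0.0165), a call lost without OSE library 1 or 2 (0.43 and 0.44).

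Oocyte genes were nearly absent from the oviduct libraries and present in each OSE library. *Bmp15* (chromosome X, 6314054 to 6320724), a growth factor made by oocytes, had 5.92, 5.57 and 2.54 CPM in the oviduct libraries and 203, 207 and 221 CPM in the OSE libraries (log2 fold change -5.40, SE 0.25, adjusted p = 4.42e-10). *Gdf9*, its partner, was at least 46.4-fold higher in OSE tissue. *Zp3* and *Zp2*, proteins of the zona pellucida around the egg, had 202, 102 and 93.2 CPM and 96.4, 81.1 and 69.9 CPM in the OSE libraries. OSE library 1 was the highest for *Zp3*, *Zp2*, *Nlrp5* and *Padi6*. All 16 oocyte genes tested, out of 24, were called higher in OSE tissue, against 24.3% of all genes tested. The median log2 fold change was -6.25, or -4.28 with bounds. Across the list 7 members had no count in any oviduct library. Genes this low in oviduct tissue pass the filter only through the OSE libraries. Their direction was therefore fixed, and the count of calls does not test it. The summed CPM of the list was 1493, 1175 and 1177 in the OSE libraries, and 17.0, 23.7 and 24.1 in the oviduct libraries.

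**Figure D3:**
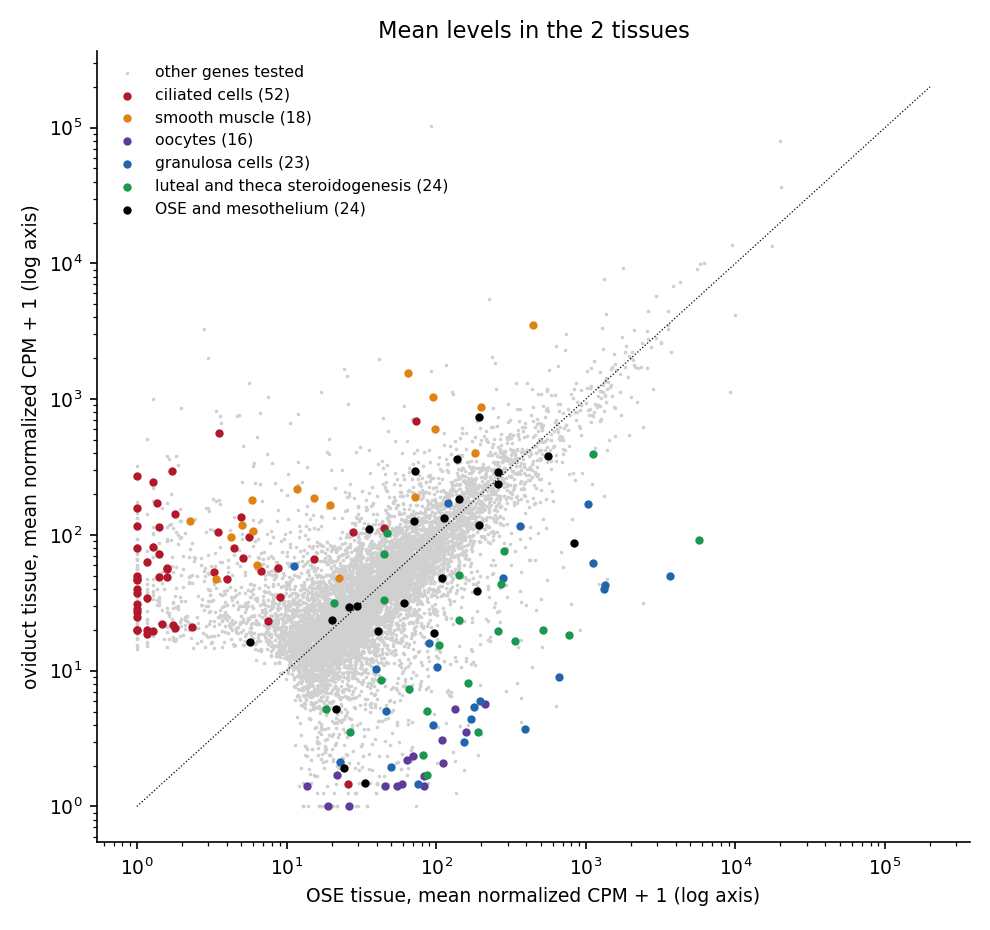
Each point is a gene tested, with its mean normalized CPM + 1 in OSE tissue on the horizontal and in oviduct tissue on the vertical log axis; the dotted line marks equal levels and colours mark 6 gene lists with the number tested. The 51 ciliated genes called higher in oviduct tissue and the smooth muscle genes lie above the line, oocyte genes and 21 of 23 granulosa genes below it, and the OSE and mesothelium genes on both sides.

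Transcription factors of the ovary were mostly higher in OSE tissue. *Gata4*, a factor of granulosa and theca cells, had 4.44, 4.18 and 12.7 CPM in oviduct and 316, 402 and 319 CPM in OSE tissue (log2 fold change -5.66, SE 0.29, adjusted p = 9.97e-10), and *Foxo1* had 235 ± 23.1 against 1095 ± 76.2 CPM (SD, n = 3). Of 17 factors tested out of 20, 13 were called higher in OSE tissue, against 24.3% of all genes tested, with a median of -2.19. *Nr2f1* and *Nr2f2*, factors of stroma, were called higher in oviduct tissue with log2 fold changes of 5.04 and 0.95.

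In activin, inhibin and bone morphogenetic protein (BMP) signalling, 14 of 27 tested genes out of 41 were called higher in OSE tissue. Called higher in oviduct tissue were 5, and the median was -0.59. Of all genes tested, 24.3% were called higher in OSE tissue and 26.9% higher in oviduct tissue. The ligands led: *Inha*, *Inhba*, *Inhbb*, *Bmp15* and *Gdf9* are described above, and the antagonist *Fst* had a log2 fold change of -5.37. Among receptors, *Amhr2*, the receptor of anti-Müllerian hormone, had 3.43 ± 0.564 against 171 ± 27.3 CPM and *Bmpr2* had 84.4 ± 18.9 against 309 ± 14.8 CPM (SD, n = 3), while *Tgfbr2* was higher in oviduct tissue (2.23). *Id3*, a target gene of BMP signals, had 21.5, 22.3 and 34.3 CPM in oviduct and 213, 254 and 300 CPM in OSE tissue.

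Wnt, retinoid and prostaglandin genes showed no common direction. Of 19 Wnt pathway genes tested out of 41, 7 were called higher in oviduct and 5 higher in OSE tissue, with a median of 0.03. The share higher in OSE tissue was near the 24.3% of all genes tested, and that higher in oviduct tissue was above the 26.9%. The R-spondins, which amplify Wnt signals, differed by member: *Rspo3* had 70.3 ± 14.5 CPM in oviduct and 1.98 ± 2.20 CPM in OSE tissue, *Rspo1* had 30.6 ± 8.53 against 60.3 ± 10.3 CPM (SD, n = 3), and *Rspo2* was at least 5.99-fold higher in OSE tissue. The ligand *Wnt5a* and the secreted *Dkk3* were higher in oviduct tissue with log2 fold changes of 2.53 and 3.94. Of 12 retinoid genes tested out of 21, 3 were called higher in oviduct and 5 higher in OSE tissue, the former near the 26.9% of all genes. *Crabp2*, which carries retinoic acid, had 6.15 ± 5.68 against 119 ± 5.23 CPM (SD, n = 3), and *Adh7*, an alcohol dehydrogenase of epithelia, had 133, 121 and 14.0 CPM in the oviduct libraries and 1.74, 0 and 0 CPM in the OSE libraries. Of 13 prostaglandin genes tested out of 22, 6 were called higher in oviduct and 2 higher in OSE tissue, with a median of 0.39. For all genes tested these shares were 26.9% and 24.3%. *Ptger4*, a receptor of prostaglandin E2, and *Slco2a1*, a prostaglandin carrier, had log2 fold changes of 3.37 and 3.60, and *Ptges*, a synthase of prostaglandin E2, had -3.50.

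Genes of the dividing cell were higher in OSE tissue almost throughout. *Top2a*, a topoisomerase of dividing cells, had 94.7, 75.2 and 24.1 CPM in the oviduct libraries and 452, 485 and 436 CPM in the OSE libraries (log2 fold change -2.78, SE 0.30, adjusted p = 1.83e-06). *Cdk1*, the kinase that drives mitosis, had 51.7 ± 9.66 against 238 ± 16.2 CPM (SD, n = 3). Of 29 genes tested out of 32, 28 were called higher in OSE tissue and 0 higher in oviduct tissue. Among all genes tested the shares were 24.3% and 26.9%. *Mcm4* was not called (adjusted p = 0.0536). With the replicate block *Mcm4* was called higher in OSE tissue (-0.82), as it was with upper quartile factors (-0.81), without a filter on low counts (-0.82) and without OSE library 3 (-1.01). The median log2 fold change was -2.75, or -2.62 with bounds, and oviduct library 3 had the lowest summed CPM, 461, against 714 and 757 in the other oviduct libraries and 3199 to 3487 in the OSE libraries.

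The cell cycle homology region, TTTGAA on either strand, is an element near the start of genes expressed in mitosis. It was in the promoter window of 13 of 24 members with a promoter (54.2%), against 20.2% of all genes. The stretches of *Top2a*, *Cdk1* and *Ube2c* are printed as the members with the highest CPM in OSE tissue among those that held it wholly before the start, with the motif in capitals 23, 15 and 29 bases before the start.
Top2a, chr11:99024190-99024249, minus strand: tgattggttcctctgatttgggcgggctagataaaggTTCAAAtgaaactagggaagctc
Cdk1, chr10:69352913-69352972, minus strand: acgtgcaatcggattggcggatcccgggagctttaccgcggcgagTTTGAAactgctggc
Ube2c, chr2:164769869-164769928, plus strand: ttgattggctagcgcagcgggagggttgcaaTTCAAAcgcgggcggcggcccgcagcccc
*Ube2c*, a ubiquitin enzyme of mitotic exit, had 4.44, 9.74 and 3.81 CPM in oviduct and 135, 128 and 114 CPM in OSE tissue.

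Immediate early genes, which are transcribed within minutes of a stimulus or of stress to a cell, were higher in OSE tissue. *Jun* (chromosome 4, 95049036 to 95052222) had 1058, 956 and 1351 CPM in the oviduct libraries and 5679, 8471 and 13330 CPM in the OSE libraries (log2 fold change -3.03, SE 0.29, adjusted p = 5.36e-07). *Fos* had 22.2, 51.5 and 66.1 CPM against 820, 1342 and 1983 CPM, and *Atf3*, a stress-induced factor, had 15.5, 12.5 and 29.2 CPM against 614, 803 and 1316 CPM. Of 28 genes tested out of 33, 26 were called higher in OSE tissue, against 24.3% of all genes tested. The median log2 fold change was -3.32. *Ier5* was called higher in oviduct tissue (59.3 ± 13.5 against 29.0 ± 11.6 CPM, SD, n = 3), a call lost without OSE library 2 (0.68), and *Ier3* was not called. The summed CPM of the list was 2310 to 3031 in the oviduct libraries, and 13256, 17722 and 26500 in OSE libraries 1, 2 and 3. OSE library 3 was the highest for *Jun*, *Fos*, *Atf3*, *Junb*, *Nr4a1* and *Zfp36*. These genes moved with the same groups as the granulosa, steroidogenic and proliferation genes, and their part in those results was not tested.

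**Figure D4:**
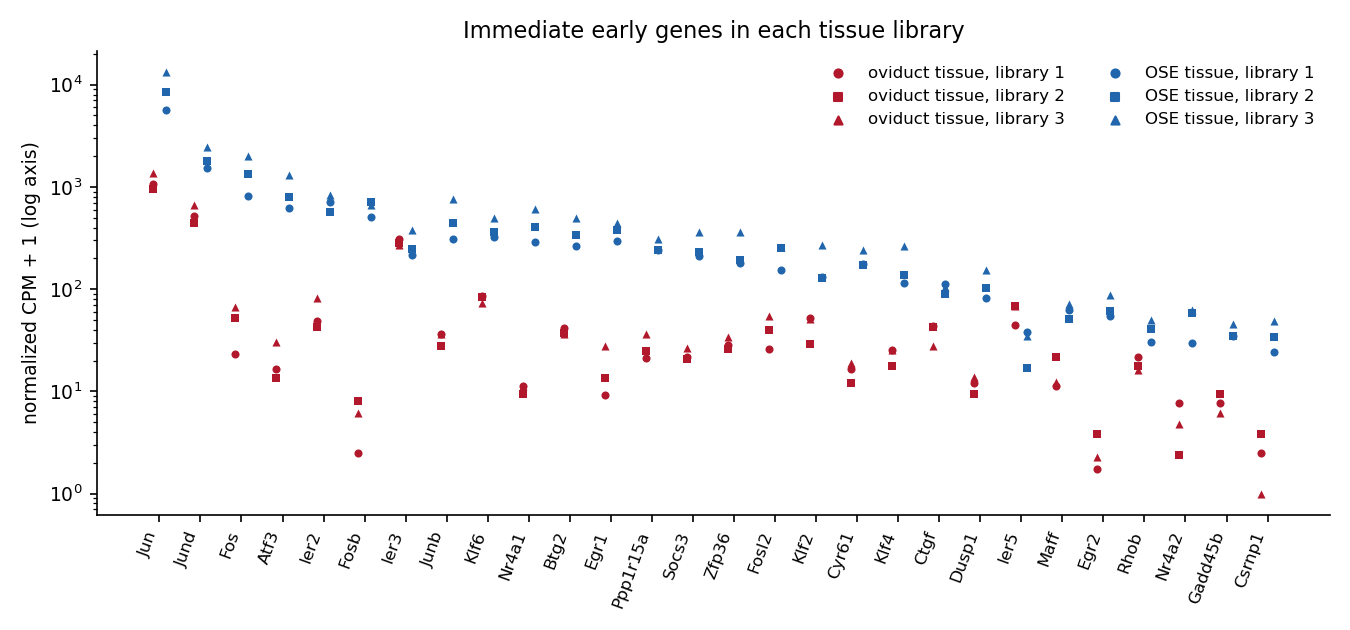
Each point is 1 library (shape marks its number, colour its tissue) and the vertical axis is normalized CPM + 1 on a log axis, for the 28 immediate early genes tested in order of mean CPM. 26 genes are higher in OSE tissue, and *Ier3* and *Ier5* are the exceptions.

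The cAMP response element, TGACGTCA, which reads the same on both strands, was in the promoter window of 4 of 23 of the called members with a promoter (17.4%), against 2.03% of all genes. The stretches of 3 of them are shown with the element in capitals, 166, 12 and 143 bases before the start of *Btg2*, *Ppp1r15a* and *Dusp1*.
Btg2, chr1:134079288-134079347, minus strand: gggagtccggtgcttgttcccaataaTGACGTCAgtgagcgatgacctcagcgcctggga
Ppp1r15a, chr7:45526269-45526328, minus strand: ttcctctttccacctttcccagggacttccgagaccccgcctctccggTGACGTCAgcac
Dusp1, chr17:26508582-26508641, minus strand: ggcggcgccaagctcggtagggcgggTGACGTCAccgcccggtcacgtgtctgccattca
*Btg2*, an antiproliferative gene, had 40.7, 36.2 and 35.6 CPM in oviduct and 264, 337 and 491 CPM in OSE tissue, and *Dusp1*, a phosphatase of MAP kinases, had 11.1, 8.35 and 12.7 CPM against 79.9, 100 and 154 CPM.

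Of 15 heat shock genes tested, 4 were called higher in oviduct and 6 higher in OSE tissue, with a median of 0.12, beside 26.9% and 24.3% of all genes tested. *Hspb1*, a small heat shock protein also abundant in muscle, had 1746 ± 257 against 651 ± 92.6 CPM (SD, n = 3, log2 fold change 1.42). *Hspa1b*, a strongly inducible member, had 159, 139 and 73.7 CPM in oviduct and 73.0, 65.4 and 466 CPM in OSE tissue, so that OSE library 3 alone stood high, and it was not called (log2 fold change -0.74, adjusted p = 0.276). Without OSE library 3 it was called higher in oviduct tissue (log2 fold change 0.82).

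Among called genes of at least 50 CPM on average whose groups did not overlap, the 10 with the largest fitted log2 fold change towards oviduct tissue were *Sox3*, *Alox12e*, *Ccdc153*, *BC048546*, *2410004P03Rik*, *Lpar3*, *Capsl*, *Slc14a1*, *Upk1a* and *Entpd3*. *BC048546* had 3814, 3736 and 2297 CPM in the oviduct libraries and 4.34, 0 and 1.06 CPM in the OSE libraries (log2 fold change 10.73, SE 0.43, adjusted p = 1.74e-10). *Alox12e*, an epidermal-type lipoxygenase, had 1181, 1383 and 419 CPM and was at least 381-fold higher than in OSE tissue. *Sox3*, a transcription factor, was at least 122-fold higher, and *Slc14a1*, a urea transporter, at least 194-fold. All of these genes but *BC048546* were at or under 3 counts in each OSE library, so their fitted values give no order, and *Ovgp1*, which was counted in each OSE library, is not among the 10.

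Towards OSE tissue the 10 largest fitted values belonged to *Slc18a2*, *Apoa4*, *Fosb*, *Inhba*, *C86187*, *Slc38a5*, *Padi6*, *Nlrp14*, *Bcl2l10* and *Nap1l5*. *Padi6* and *Inhba* are members of the oocyte and granulosa lists, and *Nlrp14* and *Bcl2l10* are likewise known from oocytes. *Slc18a2*, the vesicular monoamine transporter, had 122, 143 and 141 CPM in the OSE libraries and was at least 39.8-fold higher than in oviduct tissue. *Apoa4*, an apolipoprotein, was at least 44.7-fold higher. *Slc18a2*, *Apoa4*, *Inhba*, *Padi6*, *Nlrp14* and *Bcl2l10* were at or under 3 counts in each oviduct library, and the order of fitted values gives no rank to them. *Fosb*, an immediate early gene counted in each oviduct library, had a log2 fold change of -7.29 (SE 0.32). In all, 247 genes called higher in oviduct tissue were at or under 3 counts in each OSE library, and 160 called higher in OSE tissue were so in each oviduct library.

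Beside *Ovgp1*, the genes of highest CPM in oviduct tissue were mitochondrial RNAs and the ribosomal protein gene *Rpl4*. *mt-Rnr2*, the large mitochondrial ribosomal RNA, had 84015, 67894 and 88779 CPM in oviduct and 13719, 21073 and 25104 CPM in OSE tissue (log2 fold change 2.01, SE 0.28, adjusted p = 2.6e-05). Of the mitochondrial messenger RNAs among the most abundant genes, *mtNd5* had a log2 fold change of 2.54, *mtNd4* 0.84 and *mtNd1* 0.51, which was not called by edgeR but was by DESeq2 (0.52). The call of *mtNd4* was lost without OSE library 3 (0.80). In OSE tissue *Mt1*, a metallothionein, joined the most abundant genes, with 9919 ± 1392 CPM against 4138 ± 1180 CPM (SD, n = 3, log2 fold change -1.26).

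Organoids of both origins were set beside the tissues, on one scale for 11 libraries and as a description, since organoids differ from tissue in extraction kit and culture. The summed CPM of the oocyte list was 1085 to 1403 in OSE tissue, 0.684 and 4.78 in the OSE organoids and 0.822 to 1.90 in the oviductal organoids. For smooth muscle it was 7618 to 9286 in oviduct tissue and 434 to 533 in oviductal organoids, and for fibroblasts and stroma 7509 to 11911 and 117 to 301. Granulosa genes summed to 9744 to 11260 in OSE tissue and to 241 and 560 in the OSE organoids. In each of these comparisons the organoid libraries lay below each library of their tissue of origin. Junction genes had 3890 and 4560 CPM in the OSE organoids, above the 462 to 599 CPM of OSE tissue. The OSE and mesothelium list had 9512 and 8163 CPM there, above the 2853 to 3597 CPM of OSE tissue. Both lists were higher in oviductal organoids than in oviduct tissue too. Junction genes had 3936 to 4744 against 1729 to 2261 CPM, and the OSE and mesothelium list, which includes keratins of simple epithelia, had 4462 to 6036 against 2780 to 3191 CPM. The summed CPM of the secretory list also was higher in OSE organoids (10508 and 15157 CPM) than in OSE tissue (314 to 481 CPM). That list shares *Lcn2*, *Ltf*, *C3*, *Muc1* and *Cp* with the list of secreted defence proteins, which summed to 16947 and 13147 CPM in the OSE organoids. The sum does not show which members rose, and the study reports oviductal markers other than *Pax8* as largely absent from OSE organoids. Immediate early genes had 11304 to 15783 CPM in oviductal and 11408 and 14558 CPM in OSE organoids, within or close to the range of OSE tissue on this scale, 12450 to 24869, and above the 2089 to 2793 CPM of oviduct tissue.

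**Figure D5:**
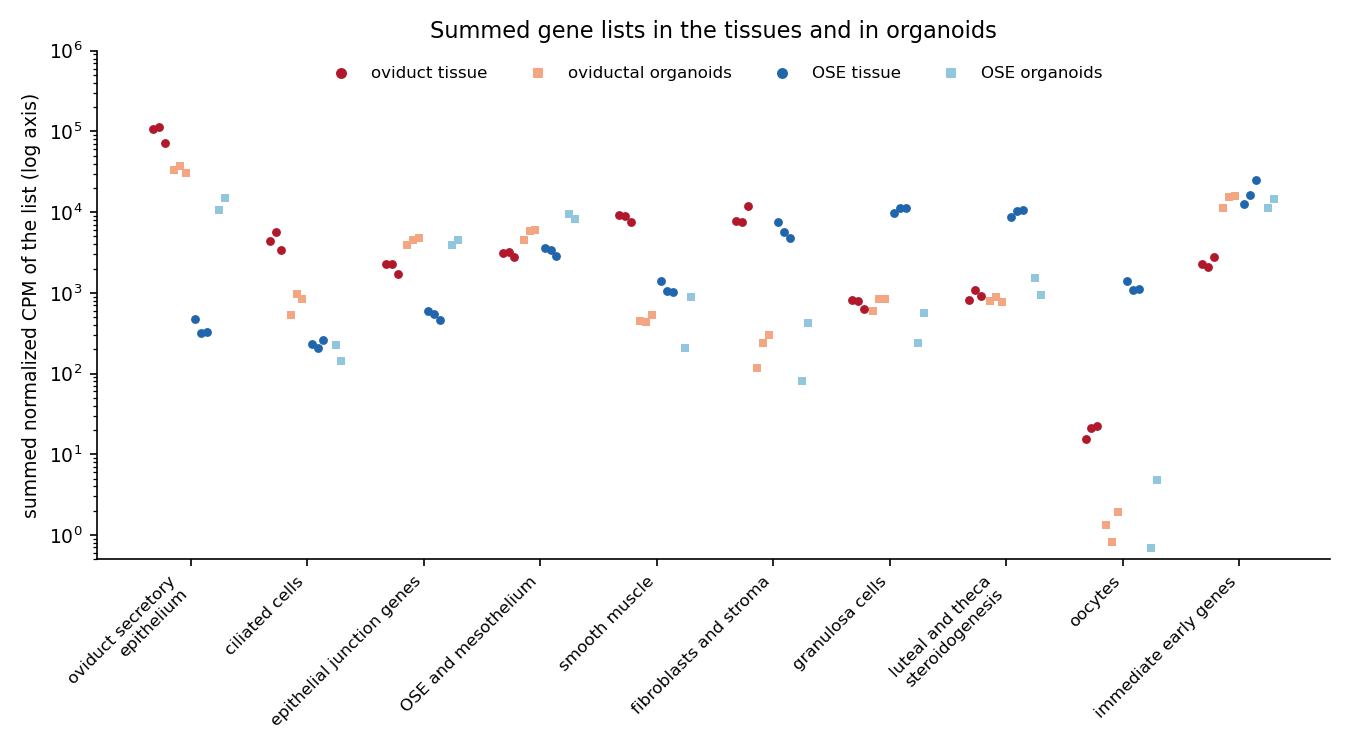
Each point is the summed normalized CPM of a gene list in 1 library on a log axis, for oviduct tissue, oviductal organoids, OSE tissue (3 libraries each) and OSE organoids (2 libraries). The oocyte list is at 1085 or more in each OSE tissue library and under 25 in all others, and the junction list is higher in the organoids than in either tissue.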

How the data were processed

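RNA of 3 oviduct and 3 OSE tissue samples was analysed, with 3 oviductal and 2 OSE organoid libraries as a description. After CEL-Seq2, the authors mapped reads to GRCm38 with BWA, kept those that mapped uniquely and deposited raw counts of reads for each gene. Molecular identifiers were not used, so limits set by counts cover counting error at most. DESeq2 1.18.0 is named in the submitters' processing notes. The table holds 18306 entries in 27 columns, of which 16 were not used here; 1 spike-in entry (1 count in all) was left out. Each GEO record covers 2 or 3 libraries, and columns were assigned to groups by name.

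Tests were edgeR 4.0.16 quasi-likelihood fits (TMM, filterByExpr) in R 4.3.3, with Benjamini-Hochberg adjustment over all genes tested and a threshold of 0.05. SE is the log2 fold change divided by the root of F. Where a tissue had at most 3 counts in each library, a fold is a lower bound, against the mean of 3 counts per library. This bound covers counting error where the counts were 0, and not fully where they reached 3. In a bounded median such genes are set to that bound. The 28 gene lists, and the libraries compared, were chosen with earlier results of these data known, so no list was tested as a set. Symbols were matched to RefSeq of GRCm38.p6, 16950 directly and 1237 as older symbols; of 654 list members in the table, 473 had a promoter there under their symbol. Named were, per list, defining members, called members of highest CPM and exceptions; the 10 largest folds in each direction with at least 50 CPM; the 10 most abundant genes per tissue; and genes that the study names. Other members, and the promoters outside the ciliated and steroidogenic lists, were chosen after their values were seen. Promoters on chromosome 18 were not printed.

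Replicate pairs differed by more than counting error (chi-square per gene 2.53 to 5.52 in 6 pairs). On simulated counts for 8787 genes, 200 of them changed, edgeR recovered 35 of 67 genes changed by a log2 fold change of 1. It recovered 66 of 67 at 2 and 66 of 66 at 3, with 6 false calls among 173. In the data 51.2% of genes tested were called, so these rates do not carry over to differences as wide as those between the tissues. Alternatives were DESeq2 1.42.0, other size factors and filters, 11 libraries in 1 fit, a replicate block, a fold threshold and each library left out. Matplotlib 3.10.9 (Python 3.11.15) was used for figures. Some genes of the lists are counted but not reported here by name.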

Additional observations from a re-analysis of the deposited data

How the results depend on the processing

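The counts of genes higher in oviduct tissue and genes higher in OSE tissue, 2362 and 2133, were 2078 and 1695 with DESeq2, 2239 and 2322 with upper quartile factors, 3190 and 2893 without a filter on low counts and 2124 and 1777 in a fit of 11 libraries. With each library left out in turn they ranged from 2087 to 2473 and from 1771 to 2214. Requiring also a log2 fold change beyond 1 left 1631 and 1308. The tissues share replicate numbers, and nothing in the labels ties samples of 1 number to each other. Deviations of samples of the same number correlated at 0.043, 0.0892 and 0.0534, all under the 0.1 required here to take them as pairs, and those of samples of different numbers at -0.0659 to 0.00755. Each sample thus correlated best with its own number, a hint from the data and not from the design. A replicate block gave 2396 and 2193 calls. Of 465 genes followed, 450 kept their direction and side of the threshold with DESeq2, 458 with the replicate block, 463 with RLE size factors and 415 in the fit of 11 libraries. The log2 fold change of *Hspa1b* was -1.17 to 0.82 with each library left out, and reversed without OSE library 3. The scaling that moved the median of all genes most, upper quartile factors, moved it to -0.0534. Depth limits the low genes: *Upk3b* and most lymphoid genes could not be tested.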
